A study of Mus musculus with 12 samples.

Results

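The integrated stress response genes described here are 10 genes named by symbol: the transcription factors Atf4, Ddit3 and Atf3, the effectors Trib3, Chac1, Sesn2 and Niban1, and the amino acid enzymes Phgdh, Psat1 and Asns. They are 10 of the 32587 gene rows measured, and every one of them reached 1 TPM (a transcript level scaled for transcript length and to a common library total) in at least 3 of the 12 libraries, so that all 10 were among the 11952 rows tested. The genes were in part chosen by measured values: Ddit3 was selected on being higher with each of the 3 bile acids than with solvent, and Niban1 on being higher with CDCA. Comparisons of these 2 genes that set against each other any library of those contrasts are given as a description, with no test. This leaves 1 tested comparison, that of Niban1 between DCA and CA. Its p-value still draws on the CDCA and DMSO libraries through the spread shared by all groups.

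Expression was measured by poly(A) RNA sequencing in wild-type mouse small-intestinal organoids, epithelial cultures that grow from intestinal stem cells and that the labels place in the duodenum. The 4 groups held 3 libraries each. They received CA (cholic acid), CDCA (chenodeoxycholic acid), DCA (deoxycholic acid) or DMSO (dimethyl sulfoxide, the solvent), all in a commercial growth medium (IntestiCult). The labels state 50 mmol/L for every acid, which is far above usual bile acid doses and leaves the unit doubtful, and they state the exposure once as 2 days and once as 96 hours. CA and CDCA are primary bile acids made by the liver, and DCA is the secondary acid that gut bacteria make from CA by removing a hydroxyl group. CDCA also has fewer hydroxyl groups than CA, but it lacks a different one from DCA. Whether the 3 libraries of a treatment came from different cultures or mice is not stated, so each p-value reflects the spread among these libraries, and that spread may be technical only.

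The integrated stress response begins when one of several kinases phosphorylates the translation factor eIF2 in response to unfolded proteins, lack of amino acids, viral RNA or heme deficit. General translation then slows, while the mRNA of ATF4 is translated more, so that ATF4 protein can change without a change in Atf4 mRNA. ATF4 activates genes of amino acid uptake and synthesis and further transcription factors, among them CHOP (the product of Ddit3), which promotes cell death when stress lasts. In the intestinal epithelium the response is best known from secretory cells, whose high protein output loads the endoplasmic reticulum.

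ATF4 binds with its partners to composite elements that join part of a C/EBP site to part of an ATF site. The letters TGATGNAA of such an element (N is any base) were searched on both strands of the window that runs from 250 bases before to 50 bases after each annotated gene start, as given by RefSeq for GRCm38.p6. All 10 genes matched a window, and 4 of the 10 held the letters, against 4.51% of the 27025 genes searched, each gene counted once. The 4 matches are shown with the flanking bases, read along the strand of the gene, because these genes are known ATF4 targets in mouse or human cells and differ below in how they responded. The capitals mark the matched letters.
Atf3: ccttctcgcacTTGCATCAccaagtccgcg
Trib3: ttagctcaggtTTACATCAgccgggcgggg
Chac1: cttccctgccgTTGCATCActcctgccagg
Asns: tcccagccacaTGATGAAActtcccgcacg
The stretches lie at chr1:191183425-191183454 (minus strand) for Atf3, chr2:152344028-152344057 (minus strand) for Trib3, chr2:119351038-119351067 (plus strand) for Chac1 and chr6:7693214-7693243 (minus strand) for Asns. In Atf3, Trib3 and Chac1 the gene's strand carries the reverse complement of the searched letters, and in Asns it carries the letters themselves. The matches start at position -110 of Atf3, 15 of Trib3, -193 of Chac1 and -23 of Asns relative to the annotated start, so that the one in Trib3 lies downstream of it. The cyclic AMP response element TGACGTCA was in none of the 10 windows, against 2.03% of all genes, and neither was the endoplasmic reticulum stress element, searched in its standard form with a spacer of any bases, against 0.137%. A match is a description of these letters and was not tested as a binding site.

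The libraries held 889156 to 936841 TPM each, and 11464 to 11711 rows reached 1 TPM. The sequencing depth is unknown, so that no counting interval can be given. The duodenal markers Pdx1 and Gata4 summed to between 86.8 and 113.5 TPM, and the immune, mesenchymal, endothelial and neural marker lists summed to at most 4.91, 6.25, 0.744 and 1.12 TPM in any library. All 6 enterocyte markers were higher and all 4 stem cell and all 4 Paneth cell markers were lower with DCA (limma adjusted p under 0.05). Also lower with DCA were 5 of 6 enteroendocrine, all 3 tuft cell and 2 of 4 goblet cell markers, and 3 of the 6 enteroendocrine markers were lower with CDCA. Of all rows, 18.8% were called higher and 19.2% lower with DCA, and 0.0837% lower with CDCA. No list among these 6 held a call with CA. Enteroendocrine markers summed to 2518 to 2911 TPM with CA, 1891 to 2102 TPM with CDCA and 1470 to 1674 TPM with DCA, against 2361 to 3014 TPM with DMSO. Fabp6, the bile acid binding protein of ileal enterocytes and the 1 of 2 ileal markers that was tested, was called higher with all 3 acids, at 138 to 306 TPM with CA, 164 to 755 TPM with CDCA and 1100 to 1653 TPM with DCA, against 0.971 to 2.31 TPM with DMSO. The enterocyte markers summed to 3921 to 5499 TPM with DCA, against 980.5 to 1744 TPM with DMSO, and the stem cell markers to 88.3 to 103.8 TPM with DCA, against 333.7 to 736.7 TPM with DMSO. Mitochondrial transcripts made up 11.2 to 12.7% of the summed TPM with DCA, 13.6 to 14.4% with CA, 14.2 to 18.1% with CDCA and 14.6 to 20.1% with DMSO. The part of these shifts in the values of the stress genes was not tested, and in bulk samples fewer cells of a type cannot be told apart from less RNA per cell. CDCA library 3 and DMSO library 1 held the lowest stem cell sums of their groups, 196.5 and 333.7 TPM, and each count below was also made without both.

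**Figure D1:**
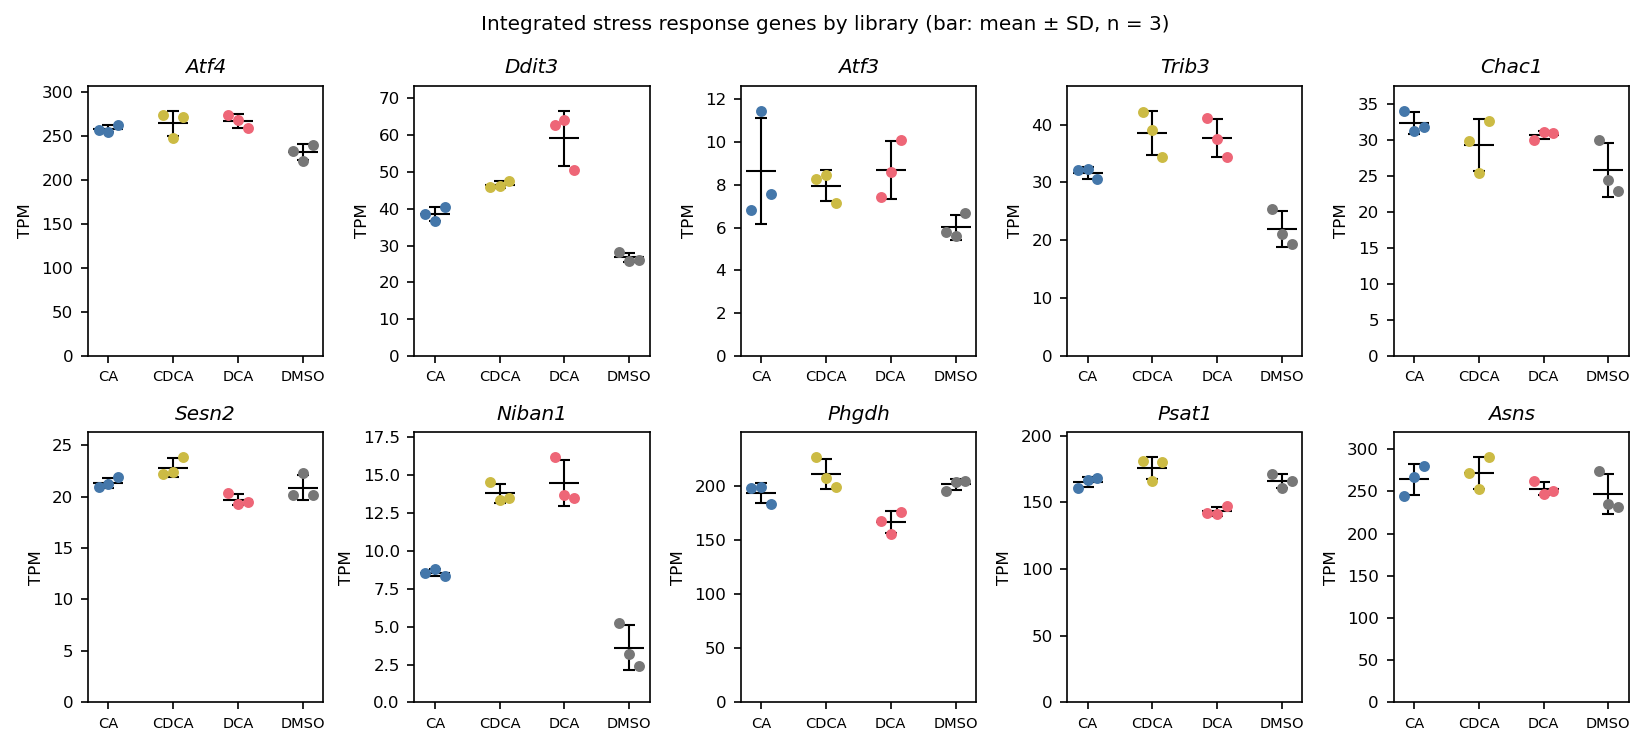
TPM of each of the 10 genes in the 12 libraries, by treatment (1 point per library, line and bar at the mean ± SD, n = 3, each panel starting at 0). Ddit3, Trib3 and Niban1 stand lowest in the DMSO libraries, while the DCA libraries are the lowest for Phgdh and Psat1.

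Among the transcription factors, Atf4 mRNA was high in every library and differed little between treatments. Atf4, the factor at the centre of the response, stood at 256, 255 and 262 TPM with CA, 274, 247 and 271 TPM with CDCA, 274, 268 and 259 TPM with DCA, and 233, 222 and 240 TPM with DMSO. All 9 acid libraries lay above the 3 DMSO libraries, and the acid groups overlapped each other. The rise with DCA was 0.20 on the log2(TPM + 1) scale (95% CI 0.07 to 0.34, limma adjusted p = 0.0218), while CA gave 0.15 (95% CI 0.02 to 0.29, limma adjusted p = 0.277) and CDCA 0.19 (95% CI 0.05 to 0.32, limma adjusted p = 0.303). The DCA call was lost without DCA library 1 (limma adjusted p = 0.0869), DCA library 2 (0.0715) or DMSO library 2 (0.0659), and over all alternatives its adjusted p ran from 0.00661 to 0.232.

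Ddit3, which encodes CHOP, was the factor with the largest range relative to its level. It measured 38.6, 36.7 and 40.6 TPM with CA, 45.8, 46.1 and 47.6 TPM with CDCA, 62.7, 64.2 and 50.4 TPM with DCA, and 28.3, 25.9 and 26.2 TPM with DMSO. The groups did not overlap, and their levels ran in the order DMSO, CA, CDCA and DCA. The means were 38.6 ± 1.92 TPM with CA, 46.5 ± 0.986 TPM with CDCA and 59.1 ± 7.58 TPM with DCA, against 26.8 ± 1.28 TPM with DMSO (SD, n = 3 each), which is 1.44, 1.74 and 2.21 times the DMSO mean. These 3 contrasts chose the gene. The DCA mean was 1.53 times the CA mean and 1.27 times the CDCA mean, and the CDCA mean was 1.20 times the CA mean. Ddit3 overlaps Mars1, a tRNA synthetase gene, on the opposite strand; the library kit marks strand according to the labels, and whether the quantification used it is not given in the sources used here. Mars1 stood between 54.7 and 68.9 TPM over the 12 libraries, and its log2 change with DCA against DMSO was -0.12 (95% CI -0.29 to 0.06, limma adjusted p = 0.274). Ddit3 also overlaps Gm4189 on the opposite strand, as Atf3 does Gm24748 and Psat1 does Gm3329. Sesn2 overlaps Gm12981 on the same strand.

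Atf3, an early stress factor that partners with other ATF and CHOP proteins, was the lowest of the 3 factors in TPM. It measured 6.85, 11.5 and 7.60 TPM with CA, 8.28, 8.46 and 7.14 TPM with CDCA, 7.42, 8.59 and 10.1 TPM with DCA, and 5.77, 5.61 and 6.68 TPM with DMSO. Every acid library lay above every DMSO library, CA library 2 was the highest of all, and the acid groups overlapped. Atf3 rose with DCA by 0.46 (95% CI 0.11 to 0.81, limma adjusted p = 0.0416), and the differences with CA (0.43, 95% CI 0.08 to 0.78, limma adjusted p = 0.245) and CDCA (0.35, 95% CI -0.0027 to 0.71, limma adjusted p = 0.517) did not pass. The DCA call was lost without DCA library 2 (limma adjusted p = 0.0907), DCA library 3 (0.152), DMSO library 1 (0.0793) or DMSO library 2 (0.116), and also without CDCA library 1 (0.0501) or CDCA library 2 (0.0531), which enter through the shared spread only. Over all alternatives its adjusted p ran from 0.0279 to 0.152.

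Of the 4 effectors, Trib3 rose with DCA and CDCA, Niban1 stood higher in every acid library, and Chac1 and Sesn2 showed no change that passed. Trib3 is a pseudokinase induced by ATF4 and CHOP that restrains AKT and feeds back on ATF4. It measured 32.1, 32.3 and 30.5 TPM with CA, 42.2, 39.0 and 34.5 TPM with CDCA, 41.1, 37.5 and 34.4 TPM with DCA, and 25.4, 21.1 and 19.4 TPM with DMSO. All acid libraries lay above the DMSO libraries, and the CDCA and DCA groups overlapped while lying above CA. Trib3 rose by 0.76 with DCA (95% CI 0.52 to 0.995, limma adjusted p = 0.000304) and by 0.79 with CDCA (95% CI 0.55 to 1.03, limma adjusted p = 0.00533), 1.71 and 1.75 times the DMSO mean. With CA its difference was 0.51 (95% CI 0.28 to 0.75, limma adjusted p = 0.0612), which passed without DMSO library 1 (limma adjusted p = 0.0178) or CDCA library 3 (0.0273, range over all alternatives 0.00215 to 0.234). The DCA call held in every alternative tried (limma adjusted p 1.9e-05 to 0.00241), and the CDCA call was lost only when the 6 libraries compared were fitted alone (limma adjusted p = 0.0762, range 0.000888 to 0.0762).

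Niban1, a phosphoprotein of the Niban family that is induced under endoplasmic reticulum stress, was the member with the largest relative differences. It measured 8.54, 8.78 and 8.35 TPM with CA, 14.5, 13.4 and 13.5 TPM with CDCA, 16.2, 13.7 and 13.5 TPM with DCA, and 5.25, 3.22 and 2.39 TPM with DMSO. The order of levels was DMSO, CA, CDCA and DCA, with no overlap except between DCA and CDCA. The means were 8.56 ± 0.214 TPM with CA, 13.8 ± 0.624 TPM with CDCA and 14.5 ± 1.49 TPM with DCA, against 3.62 ± 1.47 TPM with DMSO (SD, n = 3 each), which is 2.36, 3.81 and 3.996 times the DMSO mean. The CDCA contrast chose the gene and the other 2 share its DMSO libraries, so that none carries a test here. On its TPM scale 1 DMSO library stood above the others, at 5.25 TPM.

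Chac1, which degrades glutathione and is a target of ATF4, measured 34.0, 31.2 and 31.7 TPM with CA, 29.8, 25.4 and 32.6 TPM with CDCA, 30.0, 31.1 and 30.9 TPM with DCA, and 30.0, 24.4 and 22.9 TPM with DMSO. Only the CA group lay wholly above DMSO. Its differences were 0.32 with CA (95% CI 0.08 to 0.56, limma adjusted p = 0.203), 0.18 with CDCA (95% CI -0.06 to 0.42, limma adjusted p = 0.707) and 0.25 with DCA (95% CI 0.01 to 0.49, limma adjusted p = 0.0941). DMSO library 1 decided the last of these, which passed without it at 0.36 (limma adjusted p = 0.0162, range over all alternatives 0.00822 to 0.423). Sesn2, a stress-induced inhibitor of mTORC1 signalling, measured 20.9 to 21.9 TPM with CA, 22.2 to 23.8 TPM with CDCA, 19.3 to 20.3 TPM with DCA and 20.1 to 22.2 TPM with DMSO. Each acid group overlapped DMSO, and the differences were 0.03 with CA (95% CI -0.14 to 0.20), 0.12 with CDCA (95% CI -0.04 to 0.29) and -0.08 with DCA (95% CI -0.25 to 0.09), none past the threshold (limma adjusted p 0.884, 0.713 and 0.467).

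The serine enzymes moved the other way with DCA. Phgdh, the first and committed enzyme of serine synthesis, measured 168, 156 and 176 TPM with DCA, 198, 199 and 184 TPM with CA, 227, 208 and 200 TPM with CDCA, and 196, 204 and 205 TPM with DMSO. All 3 DCA libraries lay below all other libraries. Phgdh fell with DCA by 0.27 (95% CI of the change -0.43 to -0.12, limma adjusted p = 0.00976), and this call was lost without DCA library 2 (limma adjusted p = 0.0568, range over all alternatives 0.000737 to 0.0568). The annotation of GRCm38 also holds a Phgdh pseudogene, so that reads may be shared between them.

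Psat1, the aminotransferase that follows Phgdh in the same pathway, measured 142, 141 and 147 TPM with DCA, 161, 167 and 169 TPM with CA, 181, 166 and 180 TPM with CDCA, and 172, 161 and 166 TPM with DMSO. Here too the DCA libraries lay below all the others. Psat1 fell with DCA by 0.21 (95% CI of the change -0.35 to -0.07, limma adjusted p = 0.0186). The call was lost without DCA library 1 (limma adjusted p = 0.0666), DCA library 2 (0.0734) or DMSO library 1 (0.0534), and its adjusted p ran from 0.000461 to 0.0750 over all alternatives. With CA and CDCA neither enzyme differed past the threshold: Phgdh changed by -0.06 (95% CI -0.21 to 0.10) and 0.07 (95% CI -0.09 to 0.22), and Psat1 by -0.0062 (95% CI -0.14 to 0.13) and 0.08 (95% CI -0.06 to 0.22).

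Asns, the asparagine synthetase and a classical ATF4 target, was among the most abundant members in TPM, and its groups overlapped throughout. It measured 245, 268 and 280 TPM with CA, 272, 253 and 291 TPM with CDCA, 262, 247 and 250 TPM with DCA, and 274, 235 and 231 TPM with DMSO. The differences from DMSO were 0.10 with CA (95% CI -0.08 to 0.28), 0.14 with CDCA (95% CI -0.04 to 0.32) and 0.04 with DCA (95% CI -0.14 to 0.22), and none passed (limma adjusted p 0.626, 0.693 and 0.737).

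**Figure D2:**
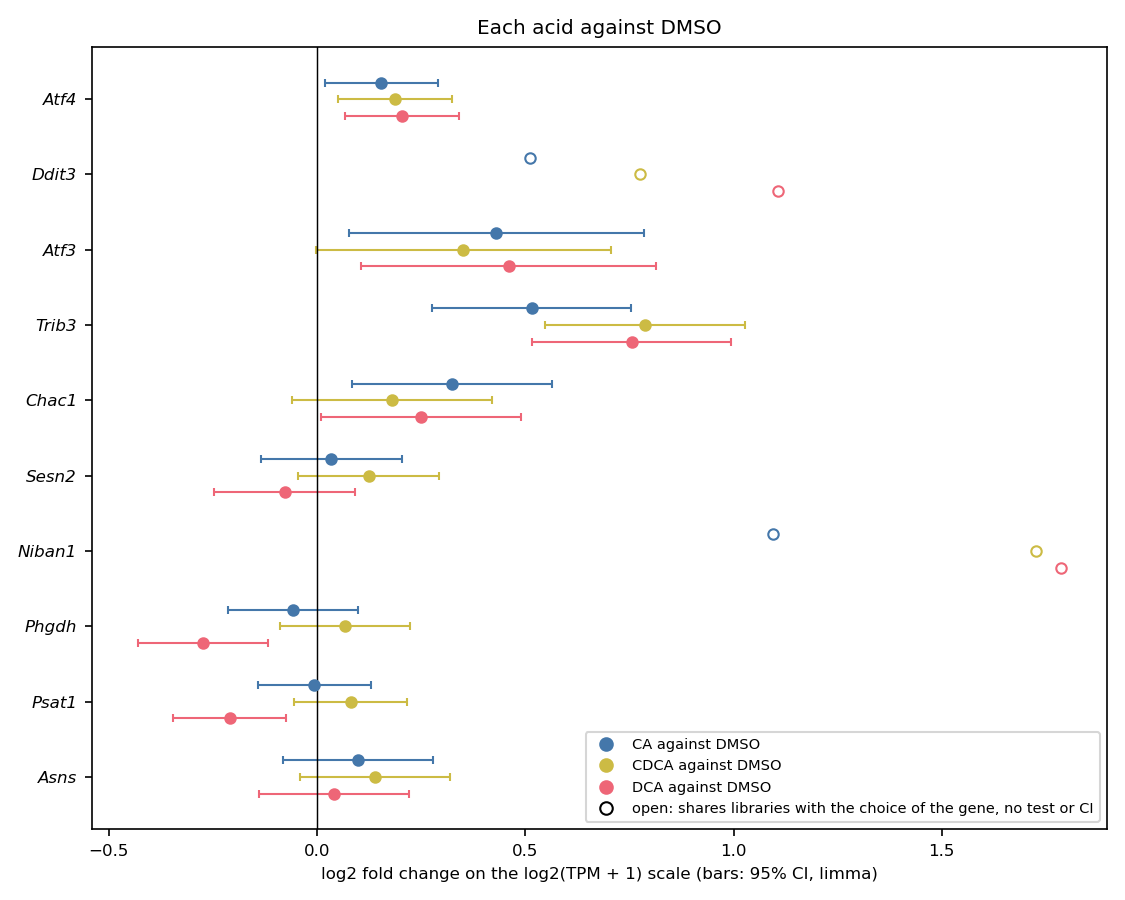
Log2 fold change of each gene with CA, CDCA and DCA against DMSO on the log2(TPM + 1) scale, with 95% confidence intervals from limma (open points: contrasts that share libraries with the choice of the gene, drawn without interval). Niban1, Ddit3 and Trib3 lie farthest above 0 with all 3 acids, and Phgdh and Psat1 lie below 0 with DCA, at -0.27 and -0.21.

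Counts of calls leave out Ddit3 and Niban1, since every comparison with DMSO uses libraries that chose them. With CA none of the other 8 members was called in limma, where 0.569% of all rows were called higher and 0.00837% lower, and 4 of the 8 had an unadjusted p under 0.05 beside 14.8% of all rows. With CDCA 1 of 8 (Trib3) was called higher and none lower, where 0.51% of all rows were called higher and 0.0837% lower. With DCA 3 of 8 were called higher and 2 lower, where 18.8% of all rows were called higher and 19.2% lower. The median change of these 8 members was 0.13 with CA, 0.16 with CDCA and 0.12 with DCA, beside medians of 0.03, 0.02 and -0.02 over all rows. In TPM, 4 of the 8 had all CA libraries above all DMSO libraries and none below, where 11.8% of all rows lay above and 5.21% below. With CDCA 3 of 8 lay above and none below, where 6.97% and 3.03% of all rows did, and with DCA 3 of 8 lay above and 2 below, where 24.2% and 26% of all rows did.

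Without CDCA library 3 and DMSO library 1, 2 of 8 were called with CA, Trib3 and Chac1, both higher, where 5.18% of all rows were called higher and 2.93% lower. In that fit 1 of 8 was higher with CDCA beside 0.563% of all rows, and 3 were higher and 2 lower with DCA beside 18.3% and 25.1%. With 1 library left out, the CA count was 1 (Trib3) without CDCA library 3 or DMSO library 1, and the DCA count was 1 (Trib3) without DCA library 2 and 3 without DCA library 1 or DMSO library 2. All 3 comparisons share the DMSO libraries.

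At the same labelled dose Psat1 was called lower with DCA than with either other acid, though the call against CA was lost in many alternatives. Phgdh was lower with DCA than with CDCA, and its difference from CA did not pass. All 3 pairs of acids were compared, each adjusted over the 11952 rows. Ddit3 is left out of these tests, because the choice used the libraries of all 3 acids; on the log2(TPM + 1) scale it differed by 0.59 for DCA minus CA, 0.33 for DCA minus CDCA and 0.26 for CDCA minus CA.

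Phgdh was lower with DCA than with CDCA by a log2 change of -0.34 (95% CI -0.50 to -0.19, limma adjusted p = 0.00468), and Psat1 likewise by -0.29 (95% CI -0.43 to -0.16, limma adjusted p = 0.00513). Both calls held in every alternative, with adjusted p of 0.00121 to 0.0300 for Phgdh and 0.000750 to 0.0289 for Psat1. Against CA, Psat1 was lower with DCA by -0.20 (95% CI -0.34 to -0.07, limma adjusted p = 0.0463) and Phgdh by -0.22 (95% CI -0.37 to -0.06, limma adjusted p = 0.0616). The Psat1 call against CA was lost without any 1 of the 6 libraries compared (limma adjusted p between 0.0706 and 0.158) or without CDCA library 2 (0.0525, range over all alternatives 0.00745 to 0.191). Phgdh passed against CA without CDCA library 3 (limma adjusted p = 0.0492) or without it and DMSO library 1 (0.0417). It also passed without mitochondrial and rRNA rows (limma adjusted p = 0.0180) and with the 6 libraries compared alone (0.0345).

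Niban1 was 0.69 higher with DCA than with CA (95% CI 0.32 to 1.06, limma adjusted p = 0.0212). The call was lost without any 1 of the CA libraries, DCA library 1 or DCA library 2 (limma adjusted p between 0.0530 and 0.0871, range over all alternatives 0.000865 to 0.0871). The mean TPM of Niban1 with CDCA was 1.61 times that with CA, and with DCA 1.05 times that with CDCA, both contrasts with the CDCA libraries that chose it. Trib3 was not called between acids in the fit to all 12 libraries: its differences were 0.27 for CDCA minus CA (95% CI 0.03 to 0.51), 0.24 for DCA minus CA (95% CI 0.0016 to 0.48) and -0.03 for DCA minus CDCA (95% CI -0.27 to 0.21), with limma adjusted p of 0.643, 0.161 and 0.856. With the 6 libraries compared alone, Trib3 passed as higher with DCA than with CA (limma adjusted p = 0.0468).

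The remaining factors and effectors did not differ past the threshold between any pair. For Atf4 the intervals of the 3 differences ran from -0.12 at the lowest to 0.19 at the highest, for Atf3 from -0.43 to 0.46, for Chac1 from -0.38 to 0.31, for Asns from -0.28 to 0.22 and for Sesn2 from -0.37 to 0.26. Sesn2 passed as lower with DCA than with CDCA without DMSO library 3 (limma adjusted p = 0.0483). It also passed without mitochondrial and rRNA rows, at -0.30 (limma adjusted p = 0.0131). In counts without Ddit3, 1 of 9 members (Niban1) was called higher and 1 (Psat1) lower with DCA than with CA, where 5.79% of all rows were called higher and 8.94% lower. This count of 2 was 0 without any 1 of the CA libraries, DCA library 1 or DCA library 2. It was 1 without DCA library 3 or CDCA library 2. Without CDCA library 3 it was 3, with Phgdh also lower, where 7.46% of all rows were called higher and 11.4% lower. With DCA against CDCA, leaving out Niban1 too, none of 8 was higher and 2 were lower, where 12.8% and 15% of all rows were. None of the same 8 passed between CDCA and CA in limma, where 0.0335% of all rows were called, and 1 of them had an unadjusted p under 0.05 beside 7.2% of all rows. Without overlap in TPM, 2 of 9 members lay higher and 4 lower with DCA than with CA, where 16.9% and 28.7% of all rows did, and none of 8 lay higher and 3 lower with DCA than with CDCA, where 21.3% and 27.1% did. With CDCA 3 of 8 lay above CA and none below, where 4.19% and 6.47% of all rows did.

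**Figure D3:**
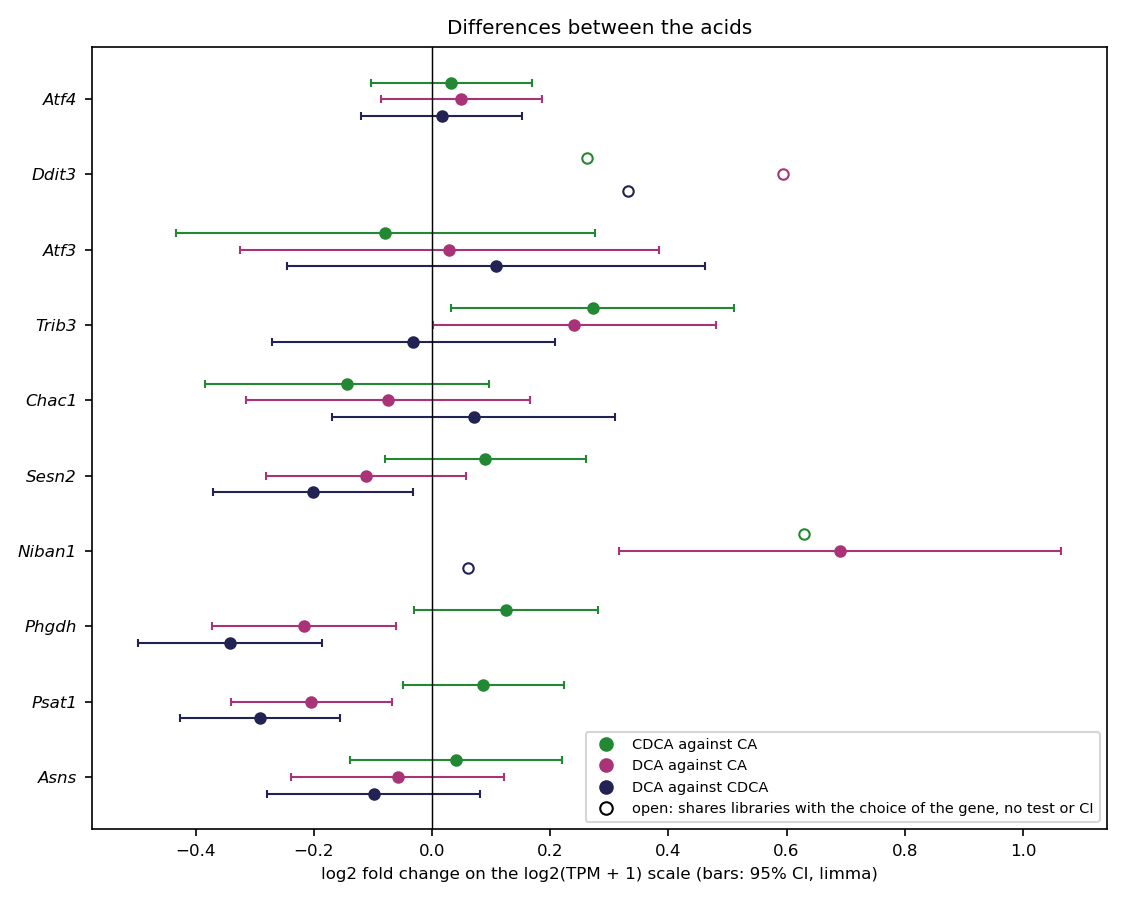
Log2 difference of each gene between pairs of acids on the log2(TPM + 1) scale with 95% confidence intervals from limma (open points: contrasts that share libraries with the choice of the gene, drawn without interval). DCA lies above both other acids for Ddit3, by 0.59 and 0.33, and below them for Phgdh and Psat1.

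The DCA values moved with the scaling of the libraries. DCA libraries held less mitochondrial RNA, and leaving out the mitochondrial and rRNA rows before rescaling moved the median of all rows from a log2 change of -0.02 to -0.15 for DCA against DMSO. Under that scaling Trib3 was still higher by 0.62, and Phgdh was lower by -0.41 and Psat1 by -0.35. Atf4 came to 0.06 and Atf3 to 0.34, no longer called (limma adjusted p = 0.232 and 0.118), and Sesn2 came to -0.21 (limma adjusted p = 0.0440). Ddit3 came to 0.97 and Niban1 to 1.66 on the same scale, without a test. Median-ratio scaling gave 0.24 for Atf4 and -0.17 for Psat1, whose call was lost (limma adjusted p = 0.0750). Over all rows 49.4% of the DCA calls were higher, against 29.5% without mitochondrial and rRNA rows. The share of higher calls was 85.9% with CDCA, 69.8% under median-ratio scaling and 72.9% without those rows, and 98.6% with CA, 88.6% without those rows.

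**Figure D4:**
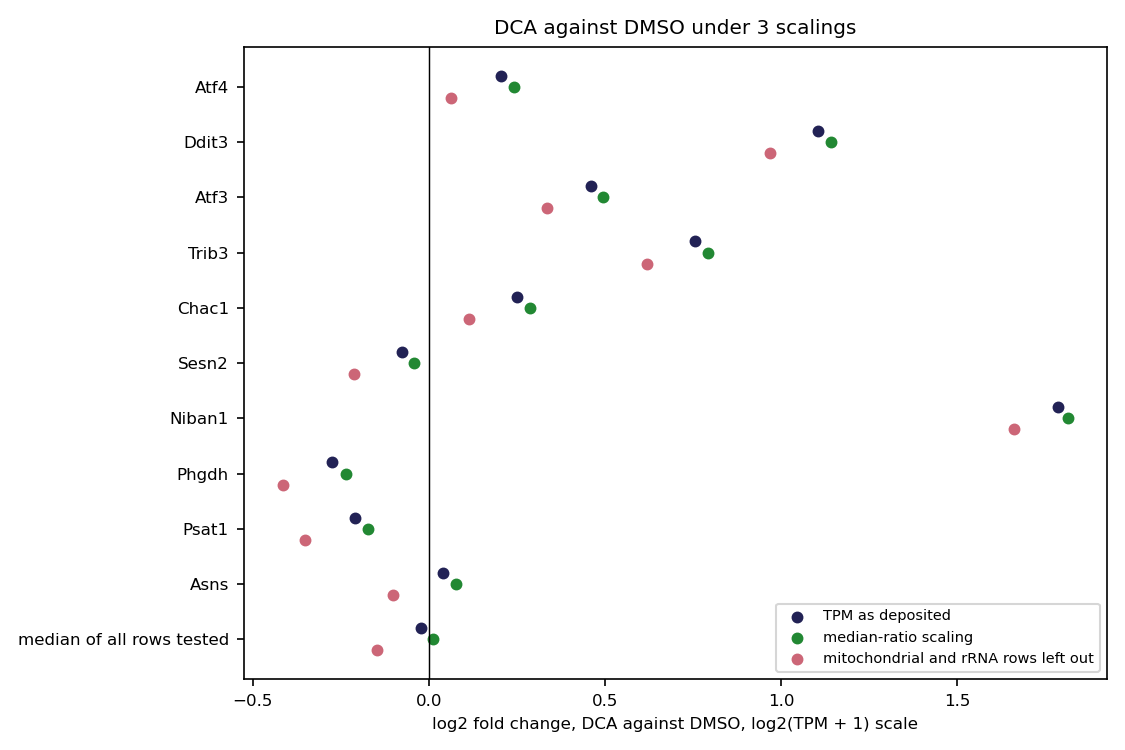
Log2 fold change of the 10 genes and the median of all rows tested with DCA against DMSO under 3 scalings of the libraries. Leaving out mitochondrial and rRNA rows shifts every point to the left, the median of all rows to -0.15, while Niban1, Ddit3 and Trib3 stay above 0.6.

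The other genes of the pathway were read from lists chosen with earlier results of these data known. With CA and CDCA few of them passed, and with DCA most lists held calls in both directions, as did all rows, of which 18.8% were called higher and 19.2% lower. Among the 16 kinases, eIF2 subunits and eIF2 phosphatases none was called with CA or CDCA. With DCA 2 of 16 were higher and 3 lower beside 18.8% and 19.2% of all rows. Without mitochondrial and rRNA rows none was higher and 8 were lower with DCA, beside 14.2% and 34% of all rows. Eif2ak3 (the kinase PERK) and Eif2ak4 (the amino acid sensor GCN2) were not called with any acid, with DCA changes of -0.23 (95% CI -0.50 to 0.03) and -0.20 (95% CI -0.47 to 0.08). Without mitochondrial and rRNA rows both passed with DCA (limma adjusted p = 0.0140 and 0.0298, ranges over all alternatives 0.0140 to 0.325 and 0.0298 to 0.652). Eif2b1, a subunit of the exchange factor that recharges eIF2, fell with DCA to 30.7, 32.6 and 32.6 TPM, against 47.5, 53.9 and 57.7 TPM with DMSO, a change of -0.71 (95% CI -0.95 to -0.47, limma adjusted p = 0.000448). Ppp1r15a was called higher with DCA, by 0.38 (limma adjusted p = 0.0302). Its call was lost in several alternatives, among them without DCA library 2 (limma adjusted p = 0.132) and without mitochondrial and rRNA rows (0.0804).

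Of 11 tested factors that partner with ATF4 or act in related stress pathways, 6 were called higher and 2 lower with DCA. In the same fit 18.8% of all rows were called higher and 19.2% lower. Without mitochondrial and rRNA rows 3 were higher and 2 lower with DCA, beside 14.2% and 34% of all rows. None was called with CA or CDCA. Xbp1, the factor of the IRE1 arm, rose by 0.50 with DCA (95% CI 0.32 to 0.68, limma adjusted p = 0.000684), and Nfe2l2, which encodes the antioxidant factor NRF2, rose by 0.60 (95% CI 0.36 to 0.84, limma adjusted p = 0.00112). Nupr1, a stress-induced chromatin protein, fell to 182, 183 and 182 TPM with DCA, against 226, 225 and 353 TPM with DMSO. Cebpb was not called with any acid, at 0.09 with DCA (95% CI -0.15 to 0.33). Cebpg and Atf5 were called higher with DCA, by 0.30 and 0.27 (limma adjusted p = 0.0211 and 0.0220). Both calls were lost without DCA library 1, without DMSO library 2 or without mitochondrial and rRNA rows.

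Enzymes of amino acid synthesis and one-carbon metabolism were mostly lower with DCA: 9 of 16 were called lower and 4 higher, beside 19.2% and 18.8% of all rows. Their median change was -0.34 beside -0.02 over all rows, and the list's median was below 0 under each scaling. None was called with CA or CDCA. Without mitochondrial and rRNA rows 10 were lower and 3 higher with DCA, beside 34% and 14.2% of all rows. Mthfd1, a folate enzyme that receives serine-derived carbon, fell to 30.7, 31.1 and 30.9 TPM with DCA, against 45.8, 54.6 and 60.6 TPM with DMSO (log2 change -0.77, 95% CI -1.01 to -0.52, limma adjusted p = 0.000351). Shmt2, the mitochondrial enzyme that splits serine, fell to 146, 143 and 148 TPM with DCA, against 159, 191 and 195 TPM with DMSO. Cbs, which condenses serine with homocysteine, stood at 0.337, 0.279 and 0.405 TPM with DCA, against 4.69, 7.32 and 4.31 TPM with DMSO. Psph, the last enzyme of serine synthesis, fell by 0.56 with DCA (95% CI of the change -0.90 to -0.22, limma adjusted p = 0.0140), a call lost without DCA library 1 (limma adjusted p = 0.0670, range over all alternatives 0.00464 to 0.0670). Aldh18a1, which opens proline synthesis, rose by 0.66 with DCA (95% CI 0.44 to 0.87, limma adjusted p = 0.000375), while Mthfd2 was not called (-0.06, 95% CI -0.20 to 0.09, limma adjusted p = 0.547), though it was without mitochondrial and rRNA rows (-0.20, limma adjusted p = 0.00846).

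Among 12 amino acid transporters named as ATF4 targets, 4 were called higher and 3 lower with DCA beside 18.8% and 19.2% of all rows. With CDCA 1 was higher, beside 0.51% of all rows, and none passed with CA. The list's median with DCA was 0.10, and -0.02 without mitochondrial and rRNA rows. Slc38a1, a glutamine transporter, rose to 75.1, 75.7 and 73.8 TPM with DCA, against 51.7, 42.1 and 53.5 TPM with DMSO, and Slc7a5, the light chain of the large neutral amino acid exchanger, fell to 26.2, 28.6 and 27.8 TPM, against 38.5, 40.0 and 43.2 TPM. Slc7a3, a cationic amino acid transporter, rose with DCA by 0.59 (95% CI 0.37 to 0.81, limma adjusted p = 0.000897) and with CDCA by 0.63 (95% CI 0.40 to 0.85, limma adjusted p = 0.0155). The CDCA call of Slc7a3 was lost without CDCA library 1 (limma adjusted p = 0.0680) or DMSO library 2 (0.0684), with a range of 0.00316 to 0.241 over all alternatives. Slc3a2 was called higher with DCA by 0.25 (limma adjusted p = 0.0101), a call lost without mitochondrial and rRNA rows (limma adjusted p = 0.0952). Slc7a11, the cystine importer, was not called with any acid. Of 13 aminoacyl-tRNA synthetases, 2 were called lower with DCA beside 19.2% of all rows, and none with the other acids. Without mitochondrial and rRNA rows 7 were lower with DCA, beside 34% of all rows.

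Of 14 tested stress effectors named as ATF4 or CHOP targets, 1 was called higher with CA, 2 higher with CDCA, and 3 higher and 1 lower with DCA. These counts stand beside 0.569% of all rows higher with CA, 0.51% higher with CDCA, and 18.8% higher and 19.2% lower with DCA. With CA none was called under median-ratio scaling or without mitochondrial and rRNA rows. The DCA split was 6 higher and 1 lower under median-ratio scaling, beside 23.7% and 21.5% of all rows. Without mitochondrial and rRNA rows it was 2 higher and 5 lower, beside 14.2% and 34% of all rows. Vldlr, a lipoprotein receptor, measured 21.5, 21.9 and 20.8 TPM with CA, 26.1, 24.3 and 24.8 TPM with CDCA and 27.1, 27.97 and 26.3 TPM with DCA, against 15.8, 15.8 and 15.5 TPM with DMSO. It was the only gene of this list called with all 3 acids, by 0.43, 0.64 and 0.75. Its CA call (limma adjusted p = 0.0277) was lost without any 1 of the CA libraries or DMSO library 2 (limma adjusted p between 0.0758 and 0.140), under median-ratio scaling (0.0553), without mitochondrial and rRNA rows (0.0515) and with the 6 libraries compared alone (0.133, range over all alternatives 0.0107 to 0.140). The CDCA call was lost with the 6 libraries alone (limma adjusted p = 0.0812). Ero1a, the oxidase that forms disulfide bonds in the endoplasmic reticulum, rose to 263, 258 and 240 TPM with DCA, against 135, 118 and 132 TPM with DMSO (log2 change 0.98, 95% CI 0.77 to 1.18, limma adjusted p = 3.21e-05). Gdf15, a secreted stress cytokine, fell to 28.4, 33.3 and 31.0 TPM with DCA, against 45.5, 45.3 and 50.7 TPM with DMSO. Ddit4 was not called with any acid, and Fgf21, at no more than 1.06 TPM in any library, was below the filter.

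Of 15 chaperones of the ATF6 and XBP1 arms 7 were called higher and 1 lower with DCA beside 18.8% and 19.2% of all rows. Without mitochondrial and rRNA rows 4 were higher and 2 lower, beside 14.2% and 34% of all rows. Hspa5, the main chaperone of the endoplasmic reticulum, rose to 321, 317 and 308 TPM with DCA, against 260, 204 and 221 TPM with DMSO, and Herpud1 was not called. Of 9 NRF2 targets 5 were called higher and none lower with DCA, beside 18.8% and 19.2% of all rows. The 5 included Osgin1 at 1.29 (95% CI 0.87 to 1.72) and Srxn1 at 0.89 (95% CI 0.65 to 1.14). Of 10 p53 targets 3 were higher and 3 lower with DCA, beside 18.8% and 19.2% of all rows. Cdkn1a was among the higher at 0.59 (95% CI 0.38 to 0.80) and Phlda3 among the lower at -0.88 (95% CI -1.09 to -0.67). Mdm2 was not called. Without mitochondrial and rRNA rows the NRF2 targets split into 5 higher and 2 lower and the p53 targets into 2 higher and 6 lower. In that fit 14.2% of all rows were called higher and 34% lower with DCA. Mdm2 was among the 6 lower p53 targets (limma adjusted p = 0.0433, range over all alternatives 0.0433 to 0.797). No gene of these 3 lists was called with CA or CDCA, but without DMSO library 1 Hspa5 and Cdkn1a passed with CA (limma adjusted p = 0.0377 for both). Of the 6 tested paralogs of the members, 3 were called higher and 2 lower with DCA, beside 18.8% and 19.2% of all rows. Niban2, a paralog of Niban1, fell to 16.1, 16.7 and 16.6 TPM with DCA, against 24.4, 28.7 and 34.8 TPM with DMSO, the direction opposite to Niban1. Without CDCA library 3 and DMSO library 1, 5.18% of all rows were called higher and 2.93% lower with CA. In that fit 1 of 16 kinases and eIF2 genes, 3 of 11 partner factors, 1 of 12 transporters, 3 of 14 effectors, 4 of 15 chaperones and 1 of 10 p53 targets were higher with CA, and 1 of the 6 paralogs was lower. Of the 16 amino acid and one-carbon enzymes 1 was higher and 3 were lower, and no synthetase or NRF2 target was called.

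**Figure D5:**
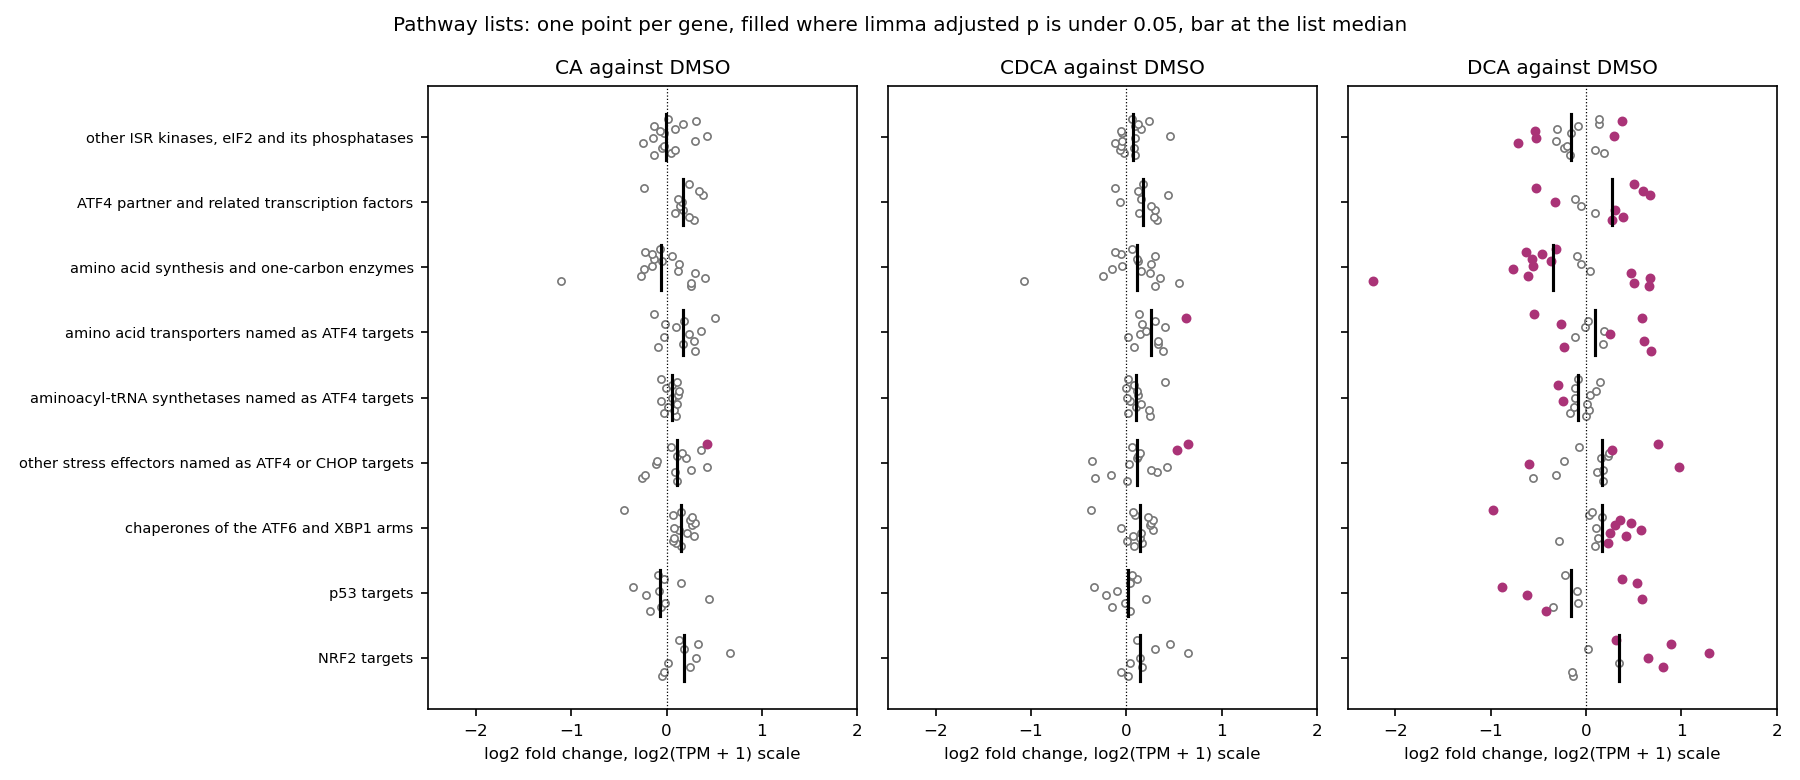
Log2 fold change of each gene of 9 pathway lists with CA, CDCA and DCA against DMSO (1 point per gene, filled where the limma adjusted p is under 0.05, bar at the list's median). The CA and CDCA panels hold 1 and 3 filled points, and in the DCA panel filled points stand on both sides of 0 in most lists.

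Across the 12 libraries the rows most like Ddit3 by Pearson correlation of log2(TPM + 1), out of 9762 ranked, were Ghitm (r = 0.97), Stbd1 (0.97), Vldlr (0.96), Fzd4 (0.96) and Unc5b (0.96). Those most like Niban1 were Trib3 (0.98), G0s2 (0.97), Slc7a3 (0.97), Vldlr (0.96) and Stbd1 (0.95). The 12 points share their treatment groups, and within the groups the correlation was 0.84 for Niban1 with Trib3, 0.95 with Slc7a3 and 0.26 with Vldlr, and 0.72 for Ddit3 with Ghitm and 0.29 with Vldlr. Between Ddit3 and Niban1 themselves it was 0.93 over all libraries and 0.35 within groups. Both genes were chosen on their values in these same libraries. Their likeness to each other and to the rows above follows in part from that choice and was not tested. Of the other members, Trib3 had a correlation of 0.89 with Ddit3 over all libraries, Atf4 of 0.85, and Atf3 and Chac1 of 0.52 each. Asns had 0.29, Sesn2 -0.13, Psat1 -0.49 and Phgdh -0.59. Within groups the values were 0.40 for Trib3, 0.43 for Atf4, -0.59 for Atf3 and 0.26 for Chac1. They were 0.36 for Asns, 0.09 for Sesn2, -0.11 for Psat1 and -0.71 for Phgdh.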

How the data were processed

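Gene levels were measured by RNA sequencing in 12 organoid libraries, 3 per treatment. The authors deposited 1 table of TPM per library with 32587 gene rows, and the submitters' processing notes name Salmon 1.8.0 and GRCm39. Filters and the use of strand are not stated there. TPM keep no depth, so no count test was run.

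A row was tested where it reached 1 TPM in at least 3 libraries (11952 rows). limma 3.58.1 in R 4.3.3 was fitted to log2(TPM + 1) with 4 group means over all 12 libraries, a mean-variance trend and robust moderation. Fold changes on this scale understate the change of low genes. The 6 comparisons were each two-sided, with Benjamini-Hochberg adjustment over all rows and a threshold of 0.05. The fit was tested on simulated data. Tables were handled in Python 3.11.15 with pandas 2.3.3 and drawn with matplotlib 3.10.9.

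The members, the lists and the tests were chosen with earlier results of these data known. The planned counts of members held Niban1 with CA and DCA and Ddit3 between acids; the report leaves these out as well, since they share libraries with the choice. The rule for named genes admits all members, up to 4 genes per list and acid with the smallest p among those past the threshold, a set chosen for its place in the pathway, and the 5 rows most like Ddit3 and Niban1; the text names part of these. The alternatives were a replicate block, leaving out each library, a pseudocount of 0.1, no filter, median-ratio scaling, rescaling with 13 mitochondrial and 2 rRNA rows left out, no trend or robust moderation, the 6 libraries compared alone, and CDCA library 3 and DMSO library 1 left out together. Promoter windows came from RefSeq GRCm38.p6 and overlaps from the GENCODE annotation of GRCm38, since no coordinates stand in the deposited tables.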

Additional observations from a re-analysis of the deposited data

How the results depend on the processing

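No call of a member or named gene changed its direction under any alternative. The counts below leave out Ddit3, and Niban1 except between DCA and CA, since their other comparisons share libraries with the choice of members. None of the 8 members counted was called between CDCA and CA in any alternative. With CA the count of members called (0 of 8) was 1 with the replicate block, without CDCA library 3 or without DMSO library 1. It was 2 without both of these libraries and 0 in every other alternative. With CDCA it (1 of 8) was 0 with the 6 libraries alone and 1 in every other alternative. With DCA it (5 of 8) was 1 without DCA library 2. It was 3 without DCA library 1, without DMSO library 2 or with the 6 libraries alone, and 4 or 5 otherwise. Between DCA and CA it (2 of 9) was 4 with the 6 libraries alone and 0 to 3 when 1 library was left out. Between DCA and CDCA it (2 of 8) was 3 without mitochondrial and rRNA rows or without DMSO library 3, and 2 otherwise. Calls over all rows are given in the next paragraph.

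Over all rows the 69 calls with CA became 31 under median-ratio scaling, 26 with no filter and 35 without mitochondrial and rRNA rows. They became 33 without trend and robust moderation and 964 without CDCA library 3 and DMSO library 1. With 1 of the 6 libraries compared left out they were 2 to 190. Without CDCA library 3 alone 249 rows were higher and 13 lower with CA. The 71 calls with CDCA became 45 with the replicate block, 22 with the 6 libraries alone and 40 to 85 when 1 was left out. The 4545 calls with DCA became 3421 to 4890 when 1 was left out. The 4 calls of CDCA against CA became 7 without mitochondrial and rRNA rows, 2 with the 6 libraries alone, 439 without CDCA library 3 and DMSO library 1, and 3 to 34 when 1 was left out. The 1761 calls of DCA against CA became 2713 without mitochondrial and rRNA rows, 3414 with the 6 libraries alone, 2830 without CDCA library 3 and DMSO library 1, and 573 to 1107 when 1 was left out. The 3322 of DCA against CDCA became 2022 to 3942. The cause was not tested, beyond the fewer libraries in some fits.

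Of DCA against CA calls 39.3% were higher, 50.4% under median-ratio scaling and 24.1% without mitochondrial and rRNA rows, and of DCA against CDCA calls 46.1% and, without those rows, 28.3%. Same-numbered libraries did not pair: the correlation of their deviations from the group means lay between -0.38 and 0.11 over 18 pairs, and 3 were above 0.1. The block lost the calls of Atf3 with DCA (limma adjusted p = 0.0509), of Psat1 between DCA and CA (0.0679) and of Vldlr with CA (0.0616, against 0.0277 without the block) and gained that of Trib3 with CA (0.0392). Ddit3 with CA against DMSO was 0.44 without mitochondrial and rRNA rows, against 0.51 as deposited. With 3 libraries a group and depth unknown, small differences of low genes such as Atf3 and Niban1 are the least certain.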
